A study of Homo sapiens with 24 samples.

Results

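AP-1 is a pair of basic leucine zipper (bZIP) proteins bound to DNA, and its subunits in the FOS and JUN families were followed here by their mRNA in human mammary epithelial cells. The 8 genes taken were FOS, FOSB, FOSL1, FOSL2, JUN, JUNB, JUND and ATF3, chosen by name and read through every probe that the platform annotation gives them. These were 10 of the 47323 probes of the array and 8 of the 12357 genes tested. FOS proteins cannot pair with each other and bind DNA together with a JUN protein, whereas JUN proteins also pair among themselves. Growth factors that act through receptor tyrosine kinases reach these genes by the ERK kinases, which act on SRF and its ELK partners at promoters, and stress signals reach them by the JNK kinases, which phosphorylate JUN. FOS and JUN are textbook immediate-early genes with brief peaks of mRNA, and FOSL1 is a later and longer-lasting product of ERK signalling that is often high in basal-like and invasive epithelial cells.

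The series asked how ERBB4, a receptor for the ligand neuregulin 1 (NRG1), changes gene expression in MCF10A, an established non-tumorigenic human mammary epithelial line. CYT2 is an ERBB4 isoform that lacks the stretch of the cytoplasmic tail with which CYT1 can bind phosphatidylinositol 3-kinase. RNA was read on Illumina BeadChips, which report the brightness of beads carrying a probe. The 6 groups were CYT2 cells with NRG1, CYT2 cells without it, CYT1 cells with NRG1, CYT1 cells without it, control vector cells with NRG1 and control vector cells without it. All cells were stable derivatives of MCF10A, all had been deprived of serum for 48 h, and the ligand or its absence lasted 2 h. The series title calls the receptors full-length JM-a ERBB4, the characteristics write ICD after the isoform, and the labels do not say whether a line was 1 clone or a pool, or which promoter drove the receptor. Each group had 2 biological samples with 2 technical arrays each, 24 arrays in all. Separate cultures are not stated for the biological samples, and p-values here therefore reflect only how these samples scatter, which may be technical.

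Between 18745 and 20370 probes were detected per array. The array's ERBB4 probe was not detected on any of the 24 arrays, so it checks nothing about the introduced receptor, while EGFR, ERBB2 and ERBB3 were detected on all of them. Of 8 basal mammary markers, the 5 with a named probe, KRT5, KRT14, CDH3, ITGB4 and LAMB3, were detected on 24 arrays, as were the 4 general epithelial markers. PTPRC, CD3E, VWF and PDGFRB were detected on 0 arrays, PECAM1 on 1 and COL3A1 on 2. The fibroblast markers COL1A1 and COL1A2 were detected on 18 and 14 arrays, and DCN and CD14 on 24. In a principal component analysis of all genes, CYT1 sample 1 with NRG1 lay apart at -18.2 on the first component, against -0.57 for sample 2 of its group, and CYT2 cells without ligand lay at 13.02 and 17.25. CD14 was the 1 immune or endothelial marker of 5 with a probe that was above background, and the summed linear level of those 5 was 319.7 to 322.9 in CYT2 cells with NRG1, against 342.7 to 360.6 without it, and 306.8 to 325.8, against 301.9 to 355.2, for 5 fibroblast markers. Their part in the results was not tested.

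RefSeq promoter windows (GRCh38.p14) matched 7 of the 8 genes by symbol, with 8 windows because ATF3 had 2. FOSL1 had no window, so its promoter was not searched. They are shown for the letters of known AP-1, ATF/CREB and SRF sites, since AP-1 subunit genes are textbook targets of such factors. Both strands of the 250 bases before each start site were searched for TGACTCA, the consensus AP-1 site, for TGACGTCA, the cAMP response element, for TGACATCA, the variant known from the JUN promoter, for TGACGT, a shorter element that TGACGTCA also contains, and for the CArG box that SRF binds. The stretches below run 5′ to 3′ from base 90 to base 31 before the start site, except that of ATF3, which runs from base 140 to base 81, and capitals mark the letters found, ACGTCA being TGACGT on the other strand.
FOS, chr14:75278738-75278797, plus strand: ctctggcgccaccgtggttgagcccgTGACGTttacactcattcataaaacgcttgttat
FOSB, chr19:45467906-45467965, plus strand: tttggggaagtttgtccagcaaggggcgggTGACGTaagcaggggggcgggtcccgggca
FOSL2, chr2:28392768-28392827, plus strand: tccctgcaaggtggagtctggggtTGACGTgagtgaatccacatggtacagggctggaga
JUN, chr1:58784078-58784137, minus strand: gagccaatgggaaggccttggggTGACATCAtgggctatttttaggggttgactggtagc
JUNB, chr19:12791396-12791455, plus strand: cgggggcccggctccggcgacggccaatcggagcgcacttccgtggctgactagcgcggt
JUND, chr19:18281653-18281712, minus strand: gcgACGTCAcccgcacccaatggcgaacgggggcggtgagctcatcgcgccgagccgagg
ATF3, chr1:212565267-212565326, plus strand: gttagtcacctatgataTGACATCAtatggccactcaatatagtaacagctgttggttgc

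FOS, FOSB and FOSL2 held TGACGT at nearly the same place, starting 64, 60 and 66 bases before the start site. JUN held TGACATCA starting 67 bases before it, and ATF3 held the same 8 letters 123 bases before the start of 1 of its windows. JUND held the full TGACGTCA at base 200, outside the stretch shown, and the shorter element again at base 87. JUNB and the other ATF3 window held none of the 5 motifs. Over all 35116 RefSeq promoter windows of the same length, 7.1% held TGACGT, 2.37% TGACATCA, 1.65% TGACGTCA, 4.2% TGACTCA and 1.16% a CArG box, and TGACTCA and the CArG box were in 0 of the 8 windows of these genes. The stretch from base 90 to base 31 held TGACGT or TGACATCA in 3.79% of all promoters. This stretch takes in the matches of FOS, FOSB, FOSL2 and JUN and the JUND element at base 87. That of ATF3 was placed to take in its own match. The share is therefore no test of these genes. A match describes letters only, and sites farther than 250 bases before a start site were not searched, so their absence here says nothing of them. Whether these letters bear on the levels below was not tested, and FOSL1 had no window to set beside the others.

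All 8 genes had a probe detected on 24 of 24 arrays. These were ILMN_1669523 for FOS, ILMN_1751607 for FOSB, ILMN_1771841 for FOSL1, ILMN_1725175 for FOSL2, ILMN_1806023 for JUN, ILMN_2086077 for JUNB, ILMN_1810214 for JUND and ILMN_2374865 for ATF3. The other 2 ATF3 probes, ILMN_1791346 and ILMN_1661109, were detected on 0 arrays and are not used further. All levels below are normalized log2 intensities of 1 probe, so they are compared between groups and not between genes. In a bulk sample, fewer cells making a transcript and less of it per cell cannot be told apart.

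**Figure D1:**
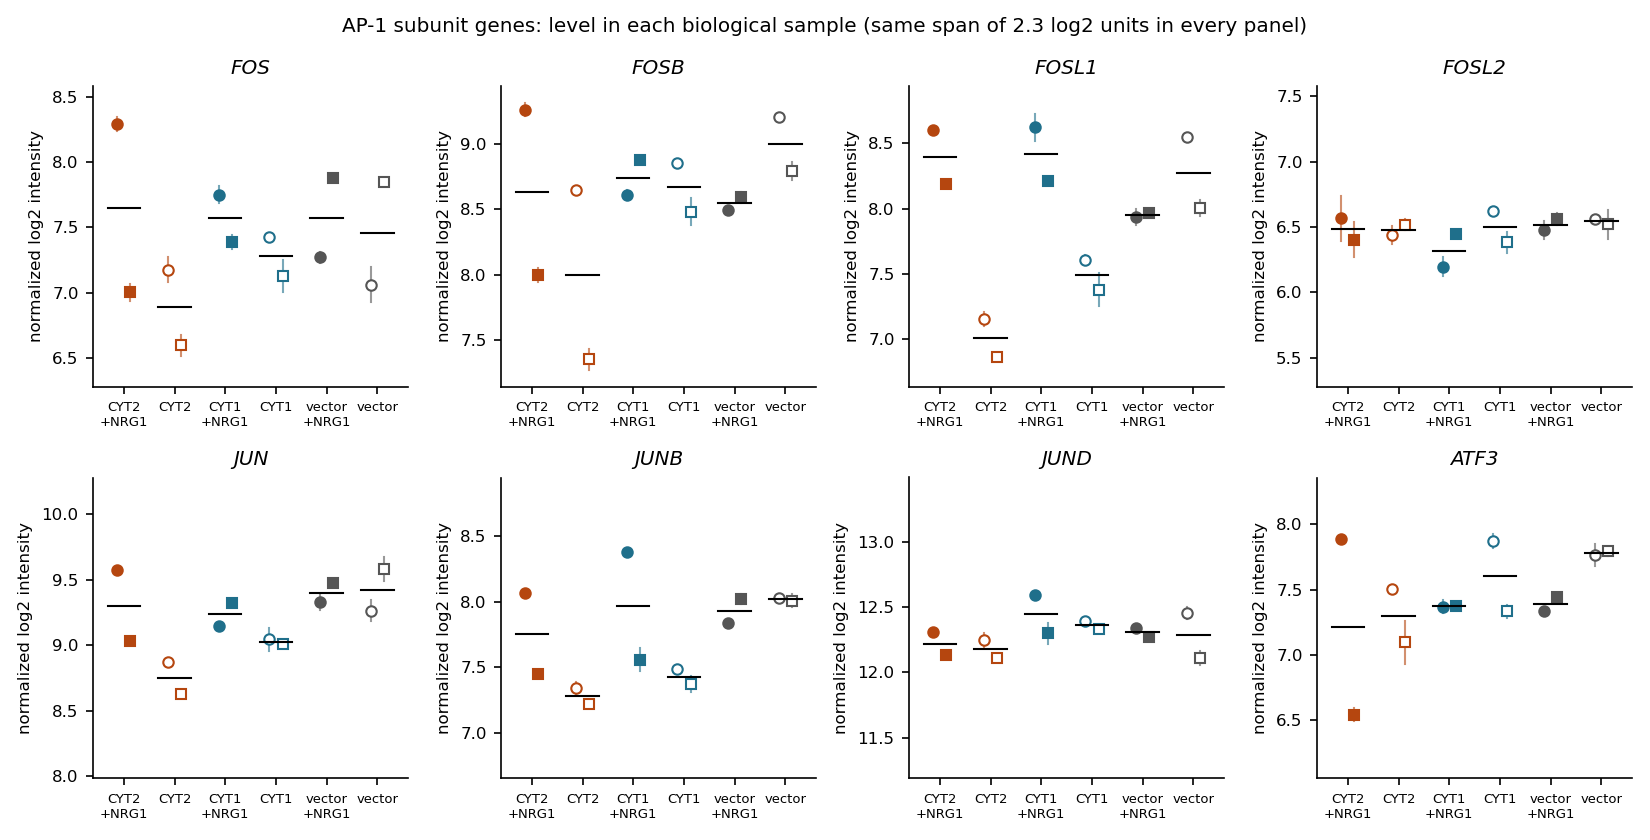
Normalized log2 intensity (vertical axis, a span of the same size in every panel) of the 8 AP-1 subunit genes in the 6 groups (horizontal axis). Circles are biological sample 1 and squares sample 2, thin lines join the 2 technical arrays, bars are group means, and filled symbols had NRG1. FOSL1 has its lowest 2 samples in CYT2 cells without ligand, at 7.15 and 6.86, while FOSL2 and JUND stay nearly level across the groups.

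FOSL1 was the 1 AP-1 subunit gene that passed the test in any comparison. It encodes FRA1, a FOS family protein without the transactivation domain of FOS, and it rose with NRG1 in CYT2 cells. FOSL1 was at 8.60 and 8.19 in CYT2 cells with NRG1, against 7.15 and 6.86 in CYT2 cells without it. It was at 8.62 and 8.21 in CYT1 cells with NRG1, against 7.61 and 7.38 in CYT1 cells without it. It was at 7.93 and 7.96 in vector cells with NRG1, against 8.55 and 8.0 in vector cells without it. In both ERBB4 lines the 2 samples with ligand lay above the 2 without it. In vector cells they lay below, but the nearest samples, 7.965 with NRG1 and 8.003 without it, were closer than technical arrays usually were (0.12, root mean square). By group mean the order was CYT1 with NRG1 (8.42 ± 0.29), CYT2 with NRG1 (8.39 ± 0.29), vector without ligand (8.27 ± 0.38), vector with NRG1 (7.95 ± 0.02), CYT1 without ligand (7.49 ± 0.16) and CYT2 without ligand (7.01 ± 0.21; SD, n = 2 each). CYT1 and CYT2 samples with NRG1 overlapped, as did CYT2 samples with NRG1 and vector samples without ligand, and the later neighbours in that order did not overlap.

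With NRG1 in CYT2 cells, the FOSL1 level was 2.61-fold higher, a log2 change of 1.38 ± 0.20 (SE; 95% interval 0.96 to 1.81), with an adjusted p of 0.00415 in limma. It was the only one of the 8 subunit genes called, at an adjusted p under 0.05, in this comparison, in which 1.65% of all genes were called and 1.36% of all genes were called as higher. In CYT1 cells the log2 change of FOSL1 was 0.92 ± 0.20 (0.50 to 1.35) with an adjusted p of 0.222 in limma, and 0 of the 8 genes were called against 0.0324% of all genes, although 2 of them, FOSL1 and JUNB, and 933 of all genes had an unadjusted p under 0.05. In vector cells the log2 change was -0.33 ± 0.20 (-0.75 to 0.10), the adjusted p was 0.999, and limma called 0 of the 8 genes and 0 of all genes, with 0 of the 8 and 500 of all genes at an unadjusted p under 0.05. Averaged over CYT1 and CYT2 cells, FOSL1 rose by 1.15 ± 0.14 on the log2 scale (0.85 to 1.46), 2.23-fold, with an adjusted p of 0.00102 in limma, alone among the 8 genes where 2.73% of all genes were called. The call in CYT2 cells was lost without sample 2 of CYT2 cells without ligand, where the change was 1.24 and the adjusted p 0.0744, and when only the 2 groups entered the fit, where the adjusted p was 0.0621, whereas the averaged change was called in 13 of 13 other settings and with each of the 12 samples left out in turn, including the CYT1 sample that stood apart (1.05 without it, adjusted p 0.00861).

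The line-to-line difference of that change was tested directly. The NRG1 change of FOSL1 was 1.71 ± 0.28 log2 units larger in CYT2 cells than in vector cells (1.11 to 2.31), with an adjusted p of 0.0273 in limma, and it was 1 of 8 genes called against 0.243% of all genes. The change was 1.25 ± 0.28 larger in CYT1 cells than in vector cells (0.65 to 1.85), with an adjusted p of 0.604, where 0 of the 8 genes and 0 of all genes were called and 1 of the 8 and 734 of all genes had an unadjusted p under 0.05. Set directly against each other, the isoforms differed by -0.46 ± 0.28 for CYT1 minus CYT2 (-1.06 to 0.14), with an adjusted p of 1 in limma. That interval leaves room for a CYT1 change more than 1 log2 unit smaller or slightly larger than that of CYT2, and 0 of the 8 genes were called there, with 0 of them and 447 of all genes at an unadjusted p under 0.05, against 0.00809% of all genes called. The call for CYT2 minus vector was made in 8 of 13 other settings and was lost without sample 1 of CYT2 cells with NRG1 (1.5, adjusted p 0.119), sample 2 of CYT2 cells without ligand (1.56, 0.145), vector sample 1 or 2 with NRG1 (1.69, 0.114 and 1.73, 0.11) and vector sample 1 or 2 without it (1.44, 0.117 and 1.98, 0.0642). The 3 differences share the samples of each line.

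**Figure D2:**
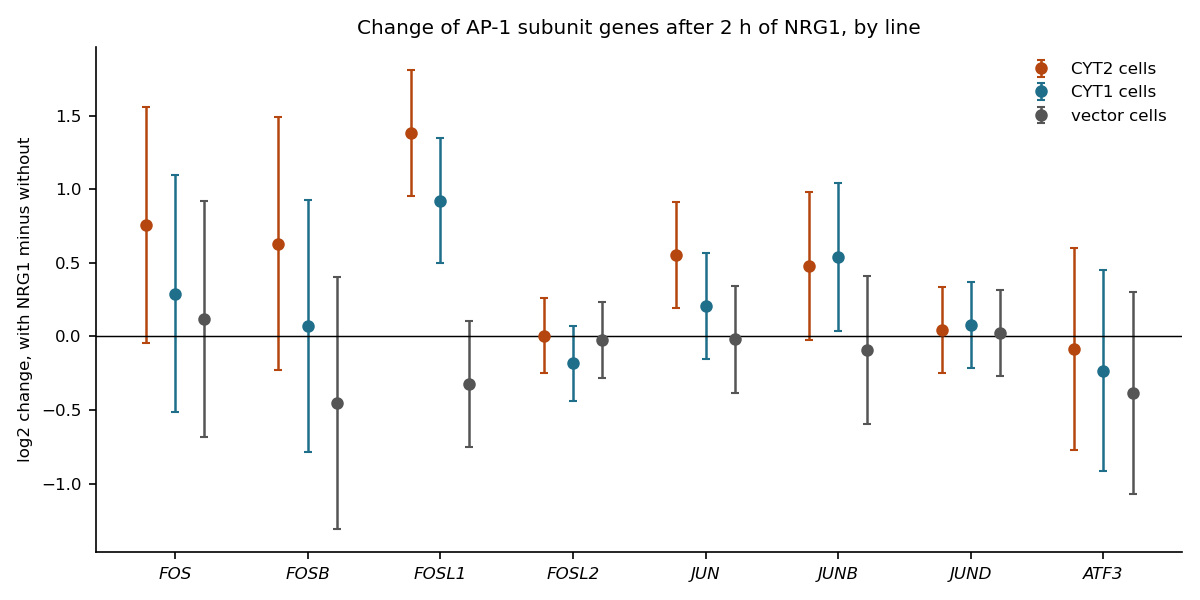
Log2 change with NRG1 minus without it (vertical axis) for each AP-1 subunit gene (horizontal axis) in CYT2, CYT1 and vector cells; points are limma estimates from 2 samples per group and bars their 95% intervals. FOSL1 stands at 1.38 in CYT2 cells, 0.92 in CYT1 cells and -0.33 in vector cells, and the intervals of FOS, FOSB and ATF3 are wide.

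The starting level of FOSL1 differed between lines as well. Without ligand it was 2.41-fold lower in CYT2 than in vector cells, a log2 difference of -1.27 ± 0.20 (-1.69 to -0.84) with an adjusted p of 0.00858 in limma, and it was 1 of the 8 genes called against 1.93% of all genes called, and 1.36% of all genes called as lower. CYT1 cells without ligand lay between, at -0.78 ± 0.20 (-1.21 to -0.35) against vector cells with an adjusted p of 0.14, and at 0.48 ± 0.20 (0.06 to 0.91) against CYT2 cells with an adjusted p of 0.852 in limma. In these comparisons limma called 0 of the 8 genes, against 0.194% of all genes for CYT1 and vector cells, where 3 of the 8 and 1724 of all genes had an unadjusted p under 0.05, and against 0 of all genes for CYT1 and CYT2 cells, where 1 of the 8 and 682 of all genes had one. With NRG1 the lines were closer. FOSL1 was then 0.44 ± 0.20 higher in CYT2 than in vector cells (0.02 to 0.87; adjusted p 0.501 in limma), 0.47 ± 0.20 higher in CYT1 than in vector cells (0.04 to 0.89; 0.539) and 0.02 ± 0.20 higher in CYT1 than in CYT2 cells (-0.40 to 0.45; 0.984), on the log2 scale. In those 3 comparisons limma called 0 of the 8 genes, against 0.397%, 0.0162% and 0.00809% of all genes, and 1, 1 and 0 of the 8 had an unadjusted p under 0.05, as did 1171, 1113 and 812 of all genes.

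The lower level in CYT2 cells without ligand was called in 13 of 13 other settings. It was not called without CYT2 sample 2 (-1.12, adjusted p 0.0559) or without vector sample 1 (-0.99, adjusted p 0.0571). The same 2 CYT2 samples without ligand are the reference of the NRG1 change in CYT2 cells and the first group of the comparison with vector cells, so the 2 results share them.

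**Figure D3:**
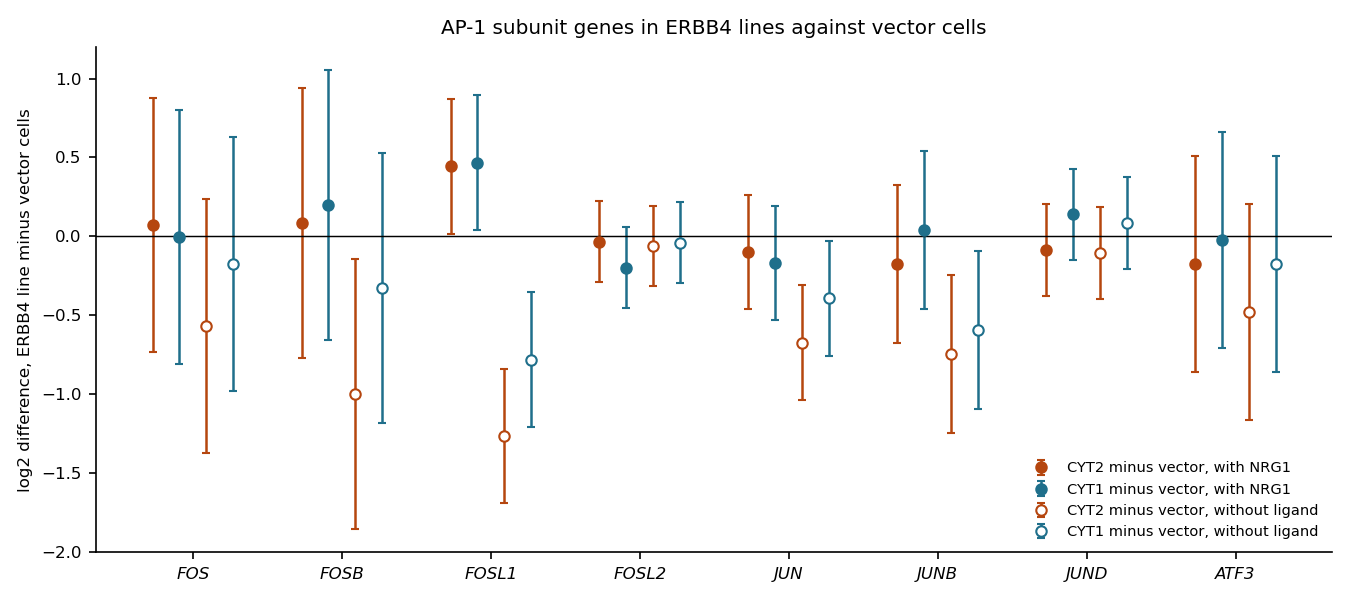
Log2 difference of each ERBB4 line minus vector cells (vertical axis) for each AP-1 subunit gene (horizontal axis), with filled points with NRG1 and open points without ligand; bars are 95% intervals from limma with 2 samples per group. In CYT2 cells FOSL1 lies at 0.44 with NRG1 and at -1.27 without ligand, and all 8 CYT2 points without ligand are below 0.

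FOS and FOSB, the immediate-early members of the FOS family, did not pass the test. FOS was at 8.29 and 7.0 in CYT2 cells with NRG1, against 7.18 and 6.60 in CYT2 cells without it, so the groups overlapped, and its log2 change was 0.76 ± 0.37 (-0.05 to 1.56; adjusted p 0.474 in limma). FOS was at 7.75 and 7.39 in CYT1 cells with NRG1, against 7.43 and 7.13 in CYT1 cells without it. In vector cells it was at 7.27 and 7.88 with NRG1, against 7.06 and 7.85 without it. Sample 1 was the higher one in the CYT2 and CYT1 groups and the lower one in both vector groups. FOSB was at 9.26 and 8.0 in CYT2 cells with NRG1, against 8.64 and 7.35 in CYT2 cells without it, a log2 change of 0.63 ± 0.39 (-0.23 to 1.49; adjusted p 0.601 in limma). It was at 8.61 and 8.87 in CYT1 cells with NRG1, against 8.86 and 8.48 in CYT1 cells without it. In vector cells FOSB was at 8.50 and 8.59 with NRG1, against 9.20 and 8.79 without it, 2 groups that did not overlap, with a log2 change of -0.45 ± 0.39. Without ligand it was -1.0 ± 0.39 in CYT2 against vector cells (-1.86 to -0.14), with an adjusted p of 0.227 in limma.

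FOSL2 encodes FRA2, the close relative of FRA1. It was at 6.57 and 6.40 in CYT2 cells with NRG1, against 6.44 and 6.52 in CYT2 cells without it. Over the 12 samples it lay between 6.20 and 6.62. Its 6 group means spanned 0.22 log2 units, the narrowest span of the 8 genes, and its NRG1 changes were 0.01 ± 0.12 in CYT2, -0.18 ± 0.12 in CYT1 and -0.02 ± 0.12 in vector cells. In CYT2 cells the 95% interval of that change ran from -0.25 to 0.26, whereas that of FOSL1 began at 0.96.

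Of the JUN family, JUN and JUNB had samples with NRG1 above those without it in both ERBB4 lines but did not pass the test, and JUND was nearly level. JUN, the main partner of FOS proteins in growth factor responses, was at 9.57 and 9.03 in CYT2 cells with NRG1, against 8.87 and 8.62 in CYT2 cells without it. Those groups did not overlap, and the log2 change was 0.55 ± 0.17 (0.19 to 0.92) with an unadjusted p of 0.00584 and an adjusted p of 0.156 in limma. JUN was at 9.15 and 9.32 in CYT1 cells with NRG1, against 9.05 and 9.01 in CYT1 cells without it. The nearest of these samples were about as far apart as technical arrays usually were (0.10, root mean square). In vector cells JUN was at 9.33 and 9.47 with NRG1, against 9.26 and 9.58 without it. The vector samples with ligand thus lay inside the range of those without it. The log2 changes of JUN in CYT1 and vector cells were 0.21 ± 0.17 and -0.02 ± 0.17. Without ligand JUN was -0.67 ± 0.17 in CYT2 against vector cells (-1.04 to -0.31; adjusted p 0.0631 in limma), and 3 of 13 other settings called it. With NRG1 that difference was -0.10 ± 0.17.

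JUNB encodes a JUN protein that can weaken the activity of JUN when the pair forms. It was at 8.07 and 7.45 in CYT2 cells with NRG1, against 7.34 and 7.22 in CYT2 cells without it. It was at 8.38 and 7.56 in CYT1 cells with NRG1, against 7.49 and 7.37 in CYT1 cells without it. In vector cells it was at 7.83 and 8.02 with NRG1, against 8.03 and 8.01 without it. In both ERBB4 lines the samples with ligand lay above those without it, and sample 1 with NRG1 was the highest of each line. In CYT1 cells the nearest samples were at 7.558 with NRG1 and 7.487 without it. They were closer than technical arrays usually were (0.083, root mean square). The log2 changes were 0.48 ± 0.23 in CYT2 cells (adjusted p 0.464 in limma), 0.54 ± 0.23 in CYT1 cells (0.65), -0.09 ± 0.23 in vector cells (0.999) and 0.51 ± 0.16 averaged over CYT1 and CYT2 cells (0.146). Without ligand JUNB was -0.74 ± 0.23 in CYT2 (adjusted p 0.13) and -0.59 ± 0.23 in CYT1 cells (adjusted p 0.281 in limma), each against vector cells.

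JUND, the JUN protein usually present in resting cells, was at 12.31 and 12.13 in CYT2 cells with NRG1, against 12.24 and 12.11 in CYT2 cells without it. Over the 12 samples it lay between 12.11 and 12.59. Its group means spanned 0.27 log2 units, and its NRG1 changes were 0.04 ± 0.13, 0.08 ± 0.13 and 0.02 ± 0.13 in CYT2, CYT1 and vector cells. ATF3, a stress-induced bZIP protein that pairs with JUN proteins and can repress, was at 7.89 and 6.54 in CYT2 cells with NRG1, against 7.50 and 7.10 in CYT2 cells without it. The samples with ligand lay on both sides of those without it. ATF3 was at 7.37 and 7.37 in CYT1 cells with NRG1, against 7.87 and 7.33 in CYT1 cells without it, and at 7.34 and 7.45 in vector cells with NRG1, against 7.76 and 7.79 in vector cells without it. Its log2 changes of -0.08 ± 0.32, -0.23 ± 0.32 and -0.39 ± 0.32 in CYT2, CYT1 and vector cells had adjusted p-values of 0.96, 0.898 and 0.999 in limma.

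As a group, 7 of the 8 genes had an NRG1 change above 0 in CYT2 cells, with a median of 0.52 against -0.02 over all genes tested, but single samples decided both values. Without sample 1 of CYT2 cells with NRG1, 4 of the 8 were above 0 and the median was 0.06, and without sample 2 of that group, 8 of 8 were and the median was 0.81. Without sample 2 of CYT2 cells without ligand, 5 of 8 were above 0 and the median was 0.23. The median was 0.14 against -0.01 in CYT1 cells, 0.24 without CYT1 sample 1 and 0.095 without CYT1 sample 2, both of the group without ligand. It was -0.06 against 0.01 in vector cells, and -0.19 to -0.005 with 1 vector sample left out. FOSL1, JUN and JUNB were the 3 genes whose groups did not overlap, higher with NRG1, in CYT2 cells, where 21.2% of all genes did. They were also the 3 in CYT1 cells, where 16.8% did. There the nearest samples of JUN and of JUNB were about as close as technical arrays usually were. In vector cells FOSB, FOSL1 and ATF3 did not overlap, lower with NRG1, where 13.9% of all genes did so. Without ligand, 0 of the 8 genes had a difference above 0 in CYT2 against vector cells. Their median was -0.62, against 0.01 over all genes. In 6 of the 8 the groups did not overlap, where 19% of all genes were lower without overlap. FOSL2 was 1 of these 6, but its nearest samples lay at 6.517 in CYT2 and 6.521 in vector cells. They were closer than its technical arrays usually were (0.17, root mean square). The median for CYT2 against vector cells was -0.32 without CYT2 sample 2, again with 0 of 8 above 0. Without vector sample 1 it was -0.76, with 1 of 8 above 0. The median for CYT1 against vector cells was -0.25, against 0.00 over all genes, -0.43 without CYT1 sample 1 and -0.09 without CYT1 sample 2.

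The biological samples of a group differed more for some subunit genes than for most genes. In CYT2 cells with NRG1, all 8 genes were higher in sample 1 than in sample 2, whereas 49.2% of all genes were. FOS was higher there by 1.29, FOSB by 1.26 and ATF3 by 1.35 log2 units, 3 of the 10 genes (0.0809% of all tested) that differed by more than 1 in that group. In CYT2 cells without ligand, FOSB was 1.29 higher in sample 1. In all 8 genes the root mean square difference between technical arrays of a sample was 0.08 to 0.17 log2 units, well under those gaps. FOSL1 differed by 0.42 between the CYT2 samples with NRG1 and by 0.29 between those without it, against a change of 1.38. The number of members higher in sample 1 was 7 of 8 in CYT2 cells without ligand, 4 in CYT1 cells with NRG1, 8 in CYT1 cells without it, 1 in vector cells with NRG1 and 5 in vector cells without it.

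The genes whose profile over the 12 samples was closest to that of FOSL1, each centred on its own mean, were PHLDA1 (root mean square difference 0.152 log2 units), MAFF (0.157) and CITED4 (0.158), against a median of 0.568 over all genes. PHLDA1 encodes a pleckstrin homology-like domain protein, MAFF a small MAF bZIP protein, and CITED4 a coactivator that binds CBP and p300. Their NRG1 changes in CYT2 cells were 1.25 ± 0.17 for PHLDA1, 1.30 ± 0.21 for MAFF and 1.19 ± 0.16 for CITED4, with adjusted p-values of 0.00311, 0.00756 and 0.00333 in limma, set beside 1.38 for FOSL1. Without ligand they were -1.02, -1.37 and -0.98 in CYT2 against vector cells, beside -1.27 for FOSL1. They were picked for their likeness over these samples, so these values describe them only.

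**Figure D4:**
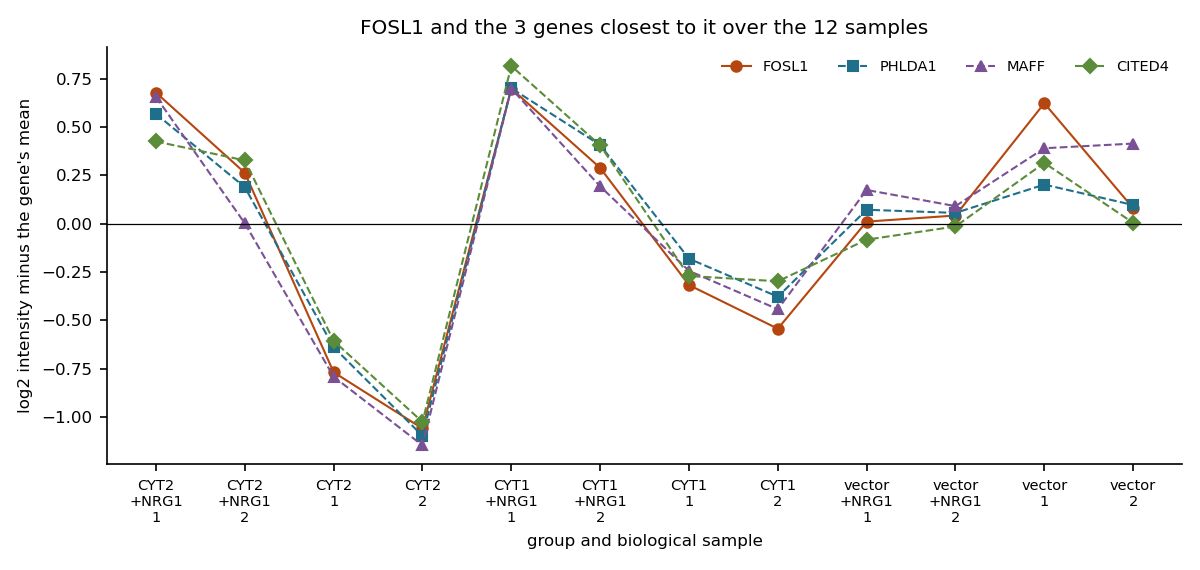
Log2 intensity minus each gene's own mean (vertical axis) for FOSL1, PHLDA1, MAFF and CITED4 in the 12 biological samples (horizontal axis, grouped by line and ligand); the joining lines only guide the eye. All 4 genes have their 2 lowest samples in CYT2 cells without ligand, where FOSL1 is 0.77 and 1.06 below its mean.

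Among other bZIP partners, 7 of 12 listed genes were tested, and MAFF was the only one to pass. It was higher with NRG1 in CYT2 cells, where 1.36% of all genes were called as higher. In unstimulated cells it was lower in CYT2 than in vector cells (adjusted p 0.00713 in limma), where 1.36% of all genes were called as lower. Of the ERK and SRF route, 11 of 12 genes were tested and limma called 0 for NRG1 in each line. At an unadjusted p under 0.05 there were 1 in CYT2, 3 in CYT1 and 1 in vector cells, beside 1414, 933 and 500 of all 12357 genes. SRF, the factor that binds CArG boxes, rose by 0.34 ± 0.07 log2 units averaged over CYT1 and CYT2 cells, 1.26-fold, with an adjusted p of 0.0278 in limma. In that average 2.73% of all genes were called. Of the JNK route, 7 of 8 genes were tested, and MAP3K1, a kinase upstream of JNK, rose by 0.38 ± 0.09 in the same average, with an adjusted p of 0.0469. The mRNA of kinases says nothing of their activity.

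Of 28 listed textbook AP-1 target genes 19 were tested. This list, like the subunit genes and the other lists, was chosen with earlier results of these data known. Its counts and medians therefore describe only the listed genes. With NRG1 in CYT2 cells 9 of the 19 rose and 0 fell, where 1.65% of all genes were called. The list median was 0.60 there, against -0.02 over all genes. The neutrophil chemokine CXCL8 rose by 2.95 ± 0.40 log2 units, 7.75-fold, with an adjusted p of 0.00336 in limma. The matrix protease stromelysin MMP3 rose by 2.56 ± 0.12 (adjusted p 3.36e-07), although in CYT2 cells without ligand only 3 of 4 arrays detected its probe. HBEGF, an EGF family growth factor, rose by 1.86 ± 0.37 (0.0226), and the cornified envelope gene SPRR2A by 1.17 ± 0.21 (0.0157). The other 5 genes called were PLAUR, PLAU, IL6, MMP10 and MMP1. In CYT1 cells MMP3 was the 1 gene of the list called, at 0.79 ± 0.12 with an adjusted p of 0.0496 in limma, detected on 3 of 4 arrays without ligand. There 0.0324% of all genes were called. In vector cells limma called 0 of the 19 and 0 of all genes, with 3 of the 19 and 500 of all genes at an unadjusted p under 0.05.

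The difference between lines was called for 2 of the 19 targets for CYT2 minus vector, where 0.243% of all genes were called. The NRG1 change was 2.61 ± 0.16 log2 units larger in CYT2 than in vector cells for MMP3 (adjusted p 1.62e-05 in limma). The other was MMP10, which 0 of 4 arrays detected in vector cells with NRG1 and 1 of 4 in CYT2 cells without it, so no size is given for it. For CYT1 minus CYT2 cells, MMP3 alone of the list was called, at -1.77 ± 0.16 (adjusted p 0.00145 in limma), where 0.00809% of all genes were called. Without ligand 6 of the 19 were lower and 0 higher in CYT2 than in vector cells, where 1.36% of all genes were called as lower. HBEGF was lower by a log2 difference of -1.94 ± 0.37 (0.0221), CXCL8 by -1.89 ± 0.40 (0.0329), the urokinase receptor PLAUR by -1.23 ± 0.23 (0.0206) and urokinase PLAU by -1.03 ± 0.15 (0.00713), by limma. FOSL1 was lower in the same comparison by -1.27 ± 0.20. Whether FOSL1 acts on these genes was not tested.

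**Figure D5:**
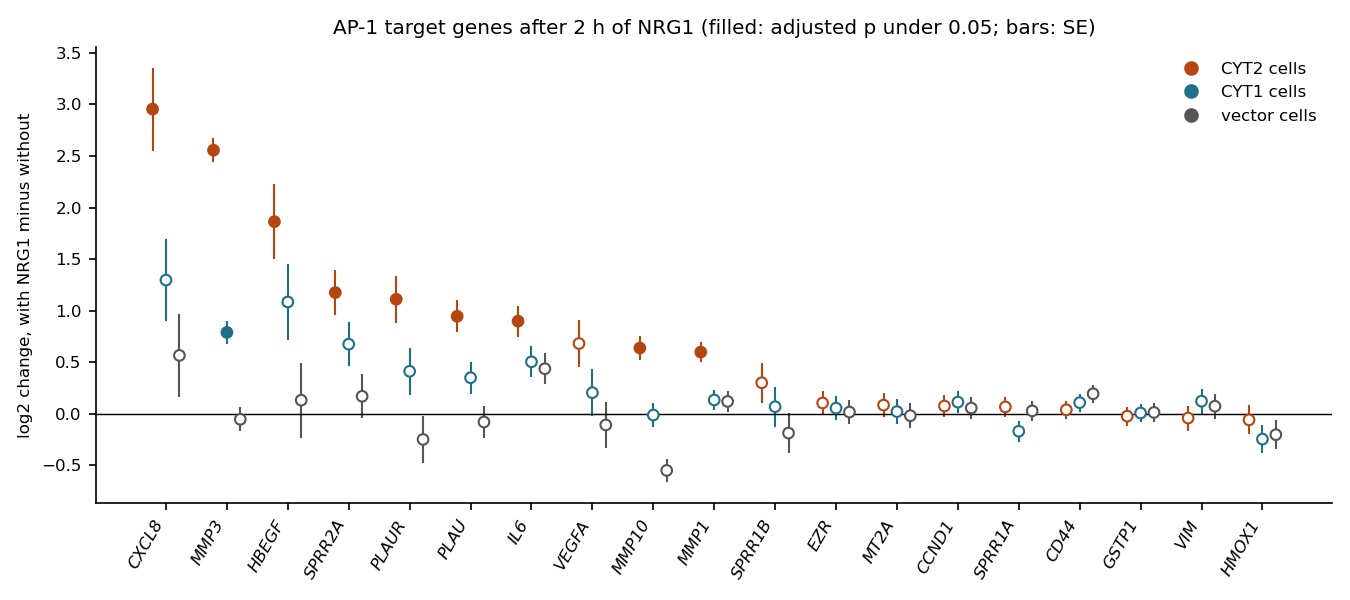
Log2 change with NRG1 minus without it (vertical axis) of 19 textbook AP-1 target genes (horizontal axis) in CYT2, CYT1 and vector cells; bars are SE from limma with 2 samples per group, and filled points had an adjusted p under 0.05. CXCL8 and MMP3 lie highest in CYT2 cells, at 2.95 and 2.56, and MMP1, not detected on the 4 arrays of CYT2 cells without ligand, rose there by at least 1.18-fold.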

How the data were processed

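Per the file headers, the deposited scanner table holds an intensity (mean bead signal) and a detection p-value per probe and array. The authors' value table holds log2 values, which matched the log2 signal within 5e-09, that is, with neither background correction nor normalization. No scanner software, chip or slide is named in the labels or headers. Probes were named through the platform annotation (30113 had 1 symbol, 8 several, 17202 were not listed).

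Background correction and quantile normalization used neqc (offset 16) in limma 3.58.1 (R 4.3.3). Probes with a detection p under 0.05 on at least 4 of 24 arrays were kept (23019, of which 16620 were named), with the probe of highest mean level per gene (12357 genes). Technical arrays were averaged, and group means of the 12 samples were fitted with lmFit and eBayes. Benjamini-Hochberg adjustment ran over the 12357 genes of each of 13 comparisons, with a threshold of 0.05. The fit was tested on simulated data. With 2 samples against 2, an exact permutation test could not go below 0.33. The 2 biological samples per group limit the precision.

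The subunit genes, gene lists and tests were chosen with earlier results of these data known. The rule for named genes took all 8 subunit genes, up to 4 called members of each list per comparison, and the 3 genes nearest in profile to a called subunit. Motifs were searched as letters in RefSeq promoter windows (GRCh38.p14). Alternatives covered the value table, normalization, offset, filters, probe choice, technical arrays, the fit and each left-out sample.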

Additional observations from a re-analysis of the deposited data

Results flagged for a closer look

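The NRG1 change of FOSL1 differed between CYT2 and vector cells by a test of the difference itself. It was 1.71 log2 units larger in CYT2 cells (adjusted p 0.0273 in limma), being 1.38 there and -0.33 in vector cells. The call was lost in some other settings, among them the authors' value table and technical arrays 1 or 2 alone. It was also lost when certain single samples were left out. By level, CYT2 minus vector was 0.44 with NRG1 and -1.27 without ligand. Both CYT2 samples with NRG1 lay above both without it. Both vector samples with NRG1 lay below both without it, but by little for 1 of them. Vector sample 2 without ligand was at 8.003, against 7.965 for the nearest vector sample with NRG1. That gap is smaller than 0.12, the root mean square difference between technical arrays for this probe.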

How the results depend on the processing

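The number of the 8 subunit genes called changed with the setting in the comparisons given here. The share of all genes called under each of these settings is not given, so the counts describe the settings and not the subunit genes. With all 24 arrays and the sample as a random block, the number called was 2 for NRG1 in CYT2 cells (FOSL1 and JUN), 1 in CYT1 cells, 3 averaged over CYT1 and CYT2 cells, 1 for CYT1 minus vector, 4 for CYT2 against vector cells without ligand and 1 for CYT1 against vector cells without ligand. With only the groups compared in the fit, it was 0 for NRG1 in CYT2 cells, 0 for CYT2 minus vector and 2 for CYT2 against vector cells without ligand, where an offset of 50 and a trended, robust fit also gave 2. CYT2 minus vector gave 0 on the authors' value table (FOSL1 1.22, adjusted p 0.0831), without the filter (0.114) and on technical arrays 1 (0.0894) or 2 alone (0.0909). Leaving out each sample in turn gave 0 to 2 for NRG1 in CYT2 cells, 1 to 2 averaged, 0 to 1 for CYT2 minus vector and 0 to 2 for CYT2 against vector cells without ligand, a lone sample being assumed to vary like the other groups. The causes were not tested. On the value table, which is not normalized, the median of all genes shifted by 0.105 for NRG1 in CYT2 cells. The deviations of same-numbered samples were weakly correlated (-0.171 to 0.23, 4 of 15 over 0.1), and the main fit did not pair them. Such correlations cannot tell whether the samples were handled in pairs. A replicate block gave 1 (FOSL1) instead of 0 for NRG1 in CYT1 cells and for CYT1 against vector cells without ligand, and the same number called in the other 11 comparisons. No called value changed sign in any setting.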
